A study of Homo sapiens with 14 samples.

Results

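The genes described here are 10 chaperones, folding enzymes and stress-response genes of the endoplasmic reticulum (ER): HSPA5, HSP90B1, CALR, CANX, PDIA3, PDIA4, PDIA6, XBP1, HERPUD1 and DNAJB9. They were picked by gene symbol, and all 10 were found among the 21574 rows of the expression table of the series. HSP90B1 shares its row with the microRNA gene MIR3652, which lies within it, so that its values cannot be separated from those of MIR3652. The rule is a list of names, and the names were proposed with earlier results of these data known.

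The series silenced ADAR1, an enzyme that converts adenosine to inosine in double-stranded RNA, in cells labelled HepG2, a human liver carcinoma line, and asked how RNA structure, RNA level and translation differ without it. The control group received scrambled siRNA and the knockdown (KD) group siADAR1, with no other allele or agent named in the labels. PARS-seq probed folded poly-A RNA with S1 nuclease, which cuts unpaired bases, or RNase V1, which cuts paired bases, in 2 libraries per nuclease and condition. RNA-seq has 1 library per condition and Ribo-seq, which sequences ribosome-protected fragments, has 2. The study calls the replicates biological, and the labels do not say whether they came from separate cultures. The p-values below measure the spread between these libraries.

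Proteins that enter the secretory pathway fold in the ER lumen, where Hsp70 and Hsp90 type chaperones, lectin chaperones and disulfide isomerases act on them in turn. When unfolded protein accumulates, the sensors IRE1, PERK and ATF6 start the unfolded protein response. Its transcription factors XBP1 and ATF6 raise transcription of most of the chaperones listed above through the ER stress response element, and PERK acts through ATF4 on another group of genes that includes CHAC1 and TRIB3.

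The ER stress response element (ERSE) is what links several of these genes in DNA, and its sites are therefore shown first. Promoter windows of RefSeq (GRCh38.p14), from 250 bases before to 50 bases after a listed transcript start, were at hand for 9 of the 10 genes, with PDIA3 the gene without an entry. Some genes have several listed starts, and the sites printed are those of the first window listed. Each of these 9 windows occurred once in the genome build GRCh37, which gave the coordinates. The start used for CANX lies inside the gene span given below, which begins at another start. Windows were searched on both strands for ERSE (CCAAT and CCACG with 9 bases between them), for ERSE-II (ATTGG and CCACG with 1 base between them) and for the unfolded protein response element, TGACGTGG. The matches are printed 5′ to 3′ with the fixed letters of the motif in capitals.
HSPA5, chr9:128003670-128003688, minus strand: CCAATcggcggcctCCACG
HSP90B1, chr12:104323994-104324012, plus strand: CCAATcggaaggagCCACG
HSP90B1, chr12:104324099-104324117, minus strand: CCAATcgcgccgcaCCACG
CALR, chr19:13049198-13049216, minus strand: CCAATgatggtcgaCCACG
CANX, chr5:179125779-179125797, plus strand: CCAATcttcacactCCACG
XBP1, chr22:29196591-29196609, minus strand: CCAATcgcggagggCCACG
HERPUD1, chr16:56965937-56965947, plus strand, ERSE-II: ATTGGgCCACG

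In the first windows ERSE was found for 5 of the 9 genes and for 22 of all 27305 genes, a share of 0.0806%. HSP90B1 held 2 copies that do not overlap, 1 on each strand. ERSE-II was found for 1 of the 9 genes and for 15 of all genes, a share of 0.0549%, and the unfolded protein response element for none of the 9 and for 0.795% of all genes. Over all 35116 windows, other starts included, PDIA6 also held ERSE in 1 of its 2 windows, and CANX held it in 3 of 4. ERSE was then found for 25 genes in all. No match was found in any window of PDIA4 and DNAJB9, which says only that these letters are not in these windows. A match is a sequence, and binding was not measured.

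Before the results, 2 properties of the libraries need to be stated. The libraries labelled HepG2 held almost no RNA of hepatocyte markers. None of 8 markers (ALB, APOA1, APOB, TTR, SERPINA1, TF, FGB and AFP) reached 1 RPKM (reads per kilobase of transcript, scaled to the mapped reads of a library) in any column, and their summed level lay between 0 and 0.0954 RPKM in control and between 0 and 0.126 RPKM in KD columns. Of the other lists checked, 1 of 3 leukocyte markers (CD68), 0 of 2 endothelial markers and 2 of 3 fibroblast markers (COL1A1 and DCN) reached 1 RPKM. CD68 was at 5.03 and 4.02 RPKM in the PARS-seq controls and at 1.48 and 1.71 RPKM in the PARS-seq KD columns. COL1A1 was at 19.5 and 29.3 RPKM in the same controls and at 16.6 and 19.4 RPKM in KD, and DCN at 1.57 and 0.828 RPKM in control and at 0.614 and 0.331 RPKM in KD. All 3 genes were thus lower in both PARS-seq KD columns, as were 9 of the 10 genes described here and 27.1% of all genes. For COL1A1 the higher KD value lay close to the lower control. The part of these 3 genes in the results was not tested. In RNA-seq all 3 were lower in KD as well, as were 8 of the 10 genes and 52.0% of all genes. CD68 was at 22.7 RPKM in control and 15.6 RPKM in KD, COL1A1 at 54.7 and 40.4 RPKM and DCN at 2.95 and 2.47 RPKM. In Ribo-seq COL1A1 was at 12.5 and 14.3 RPKM in control and at 12.4 and 9.75 RPKM in KD, lower in both pairs. CD68 was at 14.1 and 1.95 RPKM in control and at 6.14 and 3.14 RPKM in KD, and DCN at 7.61 and 0.120 RPKM in control and at 7.38 and 1.16 RPKM in KD, both with no common direction. The siRNA target ADAR was lower in KD in PARS-seq and RNA-seq, but its Ribo-seq groups overlapped. It was at 43.6 and 55.5 RPKM in the Ribo-seq controls, at 8.73 RPKM in KD replicate 1 and at 44.03 RPKM in the library labelled KD replicate 2, which is a control level and goes against that label. In what follows, Ribo-seq KD replicate 2 means the library labelled so, and the fitted Ribo-seq and TE values and the Ribo-seq counts are also given without it.

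The first question was how much RNA of each gene the cells held. In the RNA-seq control library CALR, the lectin chaperone and calcium-binding protein calreticulin, was far above the others at 1009 RPKM. CANX, its membrane-bound relative calnexin, and PDIA6, a disulfide isomerase, followed at 115 and 113 RPKM. HSP90B1, the ER member of the Hsp90 family, and HSPA5, the ER Hsp70 also called BiP, were at 94.8 and 92.1 RPKM. XBP1 (66.2), PDIA4 (59.7), HERPUD1 (50.8) and PDIA3 (48.4 RPKM) came next, and DNAJB9, a J-domain co-chaperone of BiP, was lowest at 2.48 RPKM. RPKM is per length, so that levels can be set beside each other, but 1 library gives no spread.

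PARS-seq gave a similar order with 2 replicates, where each value is the authors' mean of the S1 and the V1 library. CALR was again highest, at 2708 and 1709 RPKM in control replicates 1 and 2. HSP90B1 (439 and 456), PDIA6 (452 and 418) and CANX (416 and 402 RPKM) formed a group in which HSP90B1 and PDIA6 overlapped. PDIA3 (124 and 144) and PDIA4 (127 and 91.5 RPKM) overlapped as well, while XBP1 (50.1 and 48.7) lay just above HERPUD1 (44.5 and 47.4 RPKM). Against the RNA-seq control, PARS-seq control levels were 1.53 to 4.81 times the RNA-seq level for 8 genes, with HSP90B1 at the upper end, and lower for XBP1 (0.756 and 0.736) and HERPUD1 (0.877 and 0.934). On the log2(RPKM + 1) scale the median difference between PARS-seq and RNA-seq in control replicate 1 was 1.38 for the 10 genes and -0.07 for 10158 genes.

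**Figure D1:**
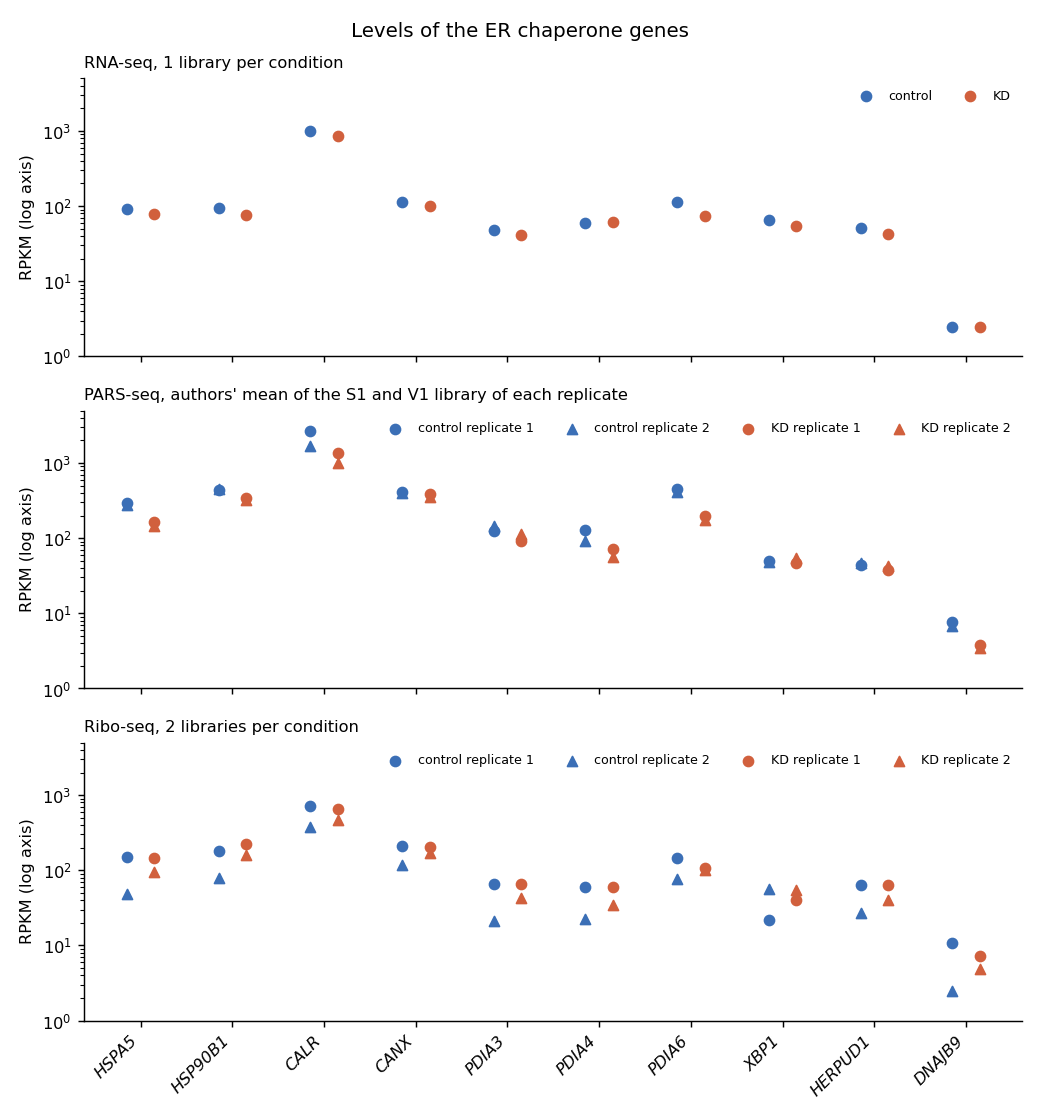
RPKM (log axis) of the 10 genes in RNA-seq, PARS-seq and Ribo-seq, with control in blue, KD in orange, replicate 1 as circles and replicate 2 as triangles. PARS-seq KD values lie below control for every gene but XBP1, and in Ribo-seq the triangles lie below the circles of the same condition for every gene but XBP1.

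The second question was what the KD did to these levels in PARS-seq. HSPA5, PDIA6 and DNAJB9 fell, and no member rose. Across all genes limma, with a mean trend on log2(RPKM + 1) and Benjamini-Hochberg adjustment, called 1728 of 11153 genes (15.5%), with 7.43% lower and 8.06% higher in KD, beside 3 and 0 of the 10 members. For 9 of the 10 members both KD values lay below both control values, which 27.1% of all genes met, and for none above both, which 33.3% met. With no filter on low values, where 19048 genes were tested, all 3 members missed the threshold (limma adjusted p between 0.0518 and 0.0661), and without KD replicate 2 HSPA5 did (limma adjusted p = 0.0667). Where 1 library is left out, here and below, its group holds 1 library and only the other group gives the spread. The p-values of such fits are to be read with that limit. The median log2 difference was -0.59 over the members and 0.04 over all genes tested.

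Among the Hsp70 and Hsp90 type chaperones, HSPA5 (chr9:127997132-128003661, minus strand, GRCh37) was at 299 and 278 RPKM in control and at 162 and 144 RPKM in KD. Both KD values were close to each other and well below control, and the log2 difference was -0.91 ± 0.18 (SE, limma adjusted p = 0.0162). DNAJB9 (chr7:108210311-108215294, plus strand), which regulates BiP, was at 7.69 and 6.86 RPKM in control and at 3.78 and 3.48 RPKM in KD. Its groups did not overlap either, with a log2 difference of -0.84 ± 0.15 (limma adjusted p = 0.00977). At this low level the value depends on the pseudocount, with -0.51 at 5 and -0.98 at 0.1, and it passed at both. HSP90B1 (chr12:104323885-104347709, plus strand) was at 439 and 456 RPKM in control and at 345 and 322 RPKM in KD. The difference of -0.42 ± 0.18 did not pass the test (limma adjusted p = 0.155).

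Of the lectin chaperones, which hold glycoproteins during folding, CALR (chr19:13049392-13055303, plus strand) was at 2708 and 1709 RPKM in control and at 1359 and 1001 RPKM in KD. The control replicates were far apart, and the log2 difference of -0.88 ± 0.28 did not pass (limma adjusted p = 0.0668). It was -0.55 without control replicate 1, -1.21 without control replicate 2, -1.10 without KD replicate 1 and -0.66 without KD replicate 2. CANX (chr5:179105629-179158642, plus strand) was at 416 and 402 RPKM in control and at 382 and 350 RPKM in KD. Its groups did not overlap, but the difference of -0.16 ± 0.19 was within its error (limma adjusted p = 0.586), and it was -0.0994 without KD replicate 2.

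The disulfide isomerases, which form and rearrange disulfide bonds, had unequal differences. PDIA6 (chr2:10923517-10978103, minus strand) was at 452 and 418 RPKM in control and at 198 and 172 RPKM in KD. This was the largest difference among the 10 genes, with a log2 value of -1.23 ± 0.19 (limma adjusted p = 0.0057). PDIA4 (chr7:148700154-148725754, minus strand) was at 127 and 91.5 RPKM in control and at 70.9 and 56.6 RPKM in KD, with a difference of -0.76 ± 0.22 that lay just outside the threshold (limma adjusted p = 0.0515). The value was -0.99 without control replicate 2 and -0.92 without KD replicate 1. It was smaller, at -0.52 and -0.60, without control replicate 1 and without KD replicate 2. PDIA3 (chr15:44038592-44065477, plus strand), which acts on glycoproteins with CALR and CANX, was at 124 and 144 RPKM in control and at 92.3 and 112 RPKM in KD, a difference of -0.39 ± 0.19 (limma adjusted p = 0.204) that was -0.25 without KD replicate 1.

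Neither XBP1 nor HERPUD1, which act in the stress response, was called. XBP1 (chr22:29190543-29196585, minus strand), the transcription factor that IRE1 activates by splicing its RNA, was at 50.1 and 48.7 RPKM in control and at 47.4 and 55.4 RPKM in KD. It was the only member whose groups overlapped, with a log2 difference of 0.05 ± 0.17 (limma adjusted p = 0.866), and RPKM over the whole gene does not separate its spliced form. HERPUD1 (chr16:56966054-56978776, plus strand), a membrane protein of ER-associated degradation, was at 44.5 and 47.4 RPKM in control and at 37.8 and 42.3 RPKM in KD, a difference of -0.20 ± 0.17 (limma adjusted p = 0.459) that was -0.12 without KD replicate 1.

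In RNA-seq, with 1 library per condition, no test of the conditions was possible. The KD library was lower for 8 of the 10 genes, beside 52.0% of all 10946 genes. PDIA6 had the lowest ratio, from 113 to 73.3 RPKM, a KD to control ratio of 0.647 (95% interval 0.628 to 0.666). It was the 1 member at least 1.5-fold lower, as were 7.41% of all genes, and none was 1.5-fold higher, as 6.75% were. The ratios of HSPA5, HSP90B1, CALR, CANX, PDIA3, XBP1 and HERPUD1 lay between 0.809 and 0.881. PDIA4 was at 59.7 and 62.2 RPKM (ratio 1.04, 95% interval 1.00 to 1.08) and DNAJB9 at 2.48 RPKM in both (ratio 1.00, 95% interval 0.825 to 1.21). The intervals cover counting error only, from whole reads recovered from the RPKM values, and PCR copies are not independent molecules. The PARS-seq fall of DNAJB9 thus stood beside an RNA-seq ratio near 1, with 190 reads in KD.

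In Ribo-seq the replicates of 1 condition lay farther apart than the conditions. HSPA5 was at 151 and 48.3 RPKM in control and at 147 and 96.4 RPKM in KD. HSP90B1 was at 179 and 79.3 RPKM in control and at 226 and 161 RPKM in KD. For both genes control replicate 2 was lowest by far, and the groups overlapped. CALR was at 707 and 372 RPKM in control and at 661 and 461 RPKM in KD. CANX was at 212 and 119 RPKM in control and at 202 and 169 RPKM in KD. In these lectin chaperones both KD values lay between the 2 controls.

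In the disulfide isomerases, too, control replicate 2 was lowest. PDIA3 was at 64.8 and 20.9 RPKM in control and at 65.0 and 42.6 RPKM in KD. PDIA4 was at 59.2 and 22.5 RPKM in control and at 60.3 and 34.9 RPKM in KD. PDIA6 was at 145 and 76.6 RPKM in control and at 107 and 101 RPKM in KD. Replicate 2 was lower than replicate 1 in each of these groups. HERPUD1 was at 63.2 and 26.8 RPKM in control and at 63.7 and 40.5 RPKM in KD. DNAJB9 was at 10.7 and 2.49 RPKM in control and at 7.29 and 4.91 RPKM in KD, from 21 to 30 reads per library. XBP1 ran the other way, at 22.1 and 55.6 RPKM in control and at 39.9 and 54.6 RPKM in KD, with 40 reads in control replicate 1.

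None of the 10 genes had KD values that were all above or all below control, which 10.7% and 7.12% of all genes had. KD was higher in both same-numbered pairs for 4 genes (HSP90B1, PDIA3, PDIA4 and HERPUD1) in Ribo-seq, beside 31.3% of all genes, and lower in both for 9 in PARS-seq, beside 36.9%. Both conditions together were met by these 4 genes and by 7.38% of 10339 genes. Without the library labelled KD replicate 2, the remaining KD value lay above both controls for the same 4 genes, beside 32.2% of all genes, and below both for none, beside 25.0%. In the pair of replicates 1 alone KD was higher for those 4 and XBP1, beside 47.1% of all genes, and the 4 met the joint condition with 11.1% of 10339 genes. Limma called 0 of 10882 genes (0.0%) in Ribo-seq, with 43 genes at an unadjusted p under 0.05, and limma voom on the recovered reads also called 0, with 31. The members' log2 differences ran from -0.02 ± 0.58 (PDIA6) to 0.67 ± 0.66 (HSP90B1), and the HSP90B1 value was 0.0891 without control replicate 2. Standard errors of the members lay between 0.58 and 0.74, and differences of this size were not detectable. Without the library labelled KD replicate 2, the members' values ran from 0.01 (PDIA6) to 0.92 (HSP90B1). That fit keeps 1 KD library, so that only the controls give its spread.

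The difference between replicates was itself shared by most members. On the log2(RPKM + 1) scale control replicate 2 minus replicate 1 had a median of -1.19 over the 10 genes and -0.24 over all genes, and the same difference in KD was -0.50 and -0.09. Without the pseudocount, control replicate 2 was at 0.233 (DNAJB9) to 0.563 (CANX) times replicate 1 in 9 genes and at 2.52 times (95% counting interval 1.81 to 3.59) for XBP1. The lists chosen for comparison did not all follow. Cytosolic and mitochondrial chaperones had a control median of -1.56 and ER translocation and N-glycosylation genes -1.19, but unfolded protein response sensors and stress factors 0.15. Ribo-seq depth, recovered from the values, was 995682 and 3322918 reads in control replicates 1 and 2 and 1404542 and 2405072 in KD, so that replicate 2 was deeper in both conditions. The part of depth in this difference was not tested.

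**Figure D2:**
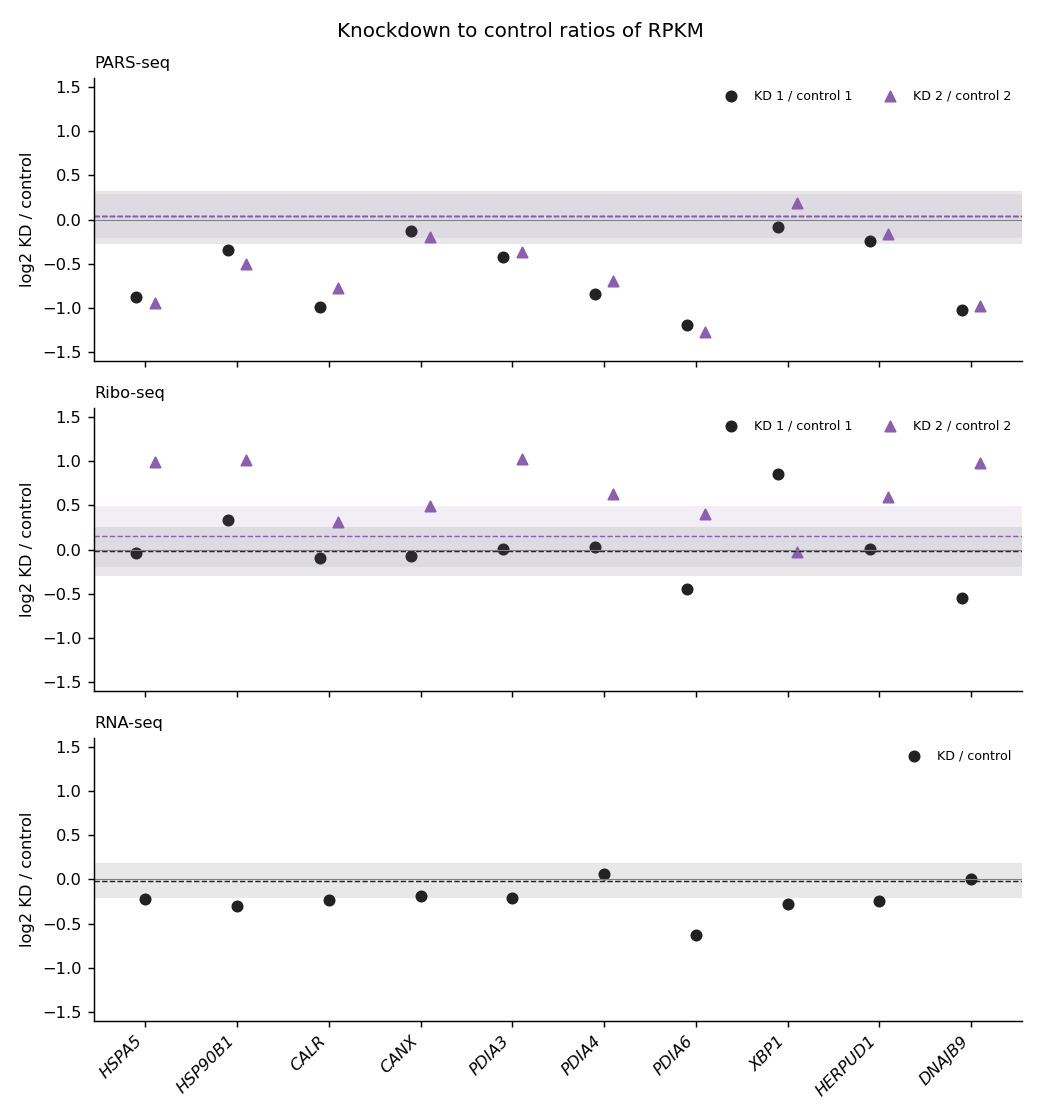
Log2 of the KD to control RPKM ratio of each gene in PARS-seq, Ribo-seq and RNA-seq, with the pair of replicates 1 as circles and the pair of replicates 2 as triangles. Dashed lines and bands are the median and the quartiles of all genes tested, computed on the log2(RPKM + 1) scale. PARS-seq pairs lie together and mostly below the band, while Ribo-seq pairs differ, with PDIA3 at ratios of 1.00 and 2.04.

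Translation efficiency (TE) was taken as Ribo-seq RPKM divided by RNA-seq RPKM of the same condition. HSP90B1 had a TE of 1.89 and 0.837 in control and of 2.94 and 2.10 in KD. CANX was at 1.85 and 1.04 in control and at 2.00 and 1.67 in KD. HSP90B1 was thus above its controls in both KD libraries, and CANX was not. The share of all genes with that order in TE was not counted, so that no result is read from it. HSPA5 was at 1.63 and 0.524 in control and at 1.85 and 1.22 in KD, and PDIA3 at 1.34 and 0.432 in control and at 1.56 and 1.02 in KD. CALR, the gene with the most RNA, had low values of 0.701 and 0.369 in control and of 0.773 and 0.539 in KD.

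Among the remaining genes, PDIA6 was at 1.28 and 0.676 in control and at 1.45 and 1.38 in KD. Both KD values lay above control, an order whose share of all genes was not counted, as for HSP90B1. PDIA4 was at 0.992 and 0.377 in control and at 0.970 and 0.562 in KD, which overlap. HERPUD1 was at 1.25 and 0.528 in control and at 1.49 and 0.943 in KD. XBP1 had the lowest control value, 0.334 in replicate 1, beside 0.840 in replicate 2 and 0.729 and 0.997 in KD. DNAJB9 had the highest, 4.31 in control replicate 1, beside 1.00 in replicate 2 and 2.94 and 1.98 in KD, on few reads. As the RNA-seq value is shared by both replicates, the spread of TE is that of Ribo-seq alone.

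The fitted change in TE was above 0 for all 10 genes, with a median of 0.57 against 0.10 over all genes. It was above 0 for 21 of 22 genes of ER translocation and N-glycosylation and for 19 of 21 other ER folding factors. So it was for 11 of 12 cytosolic and mitochondrial chaperones (median 0.53), 12 of 16 ER-associated degradation genes and 7 of 15 sensors and stress factors. The share of all genes above 0 was not counted, and all values rest on the same 6 libraries. Limma called 0 of 11165 genes (0.0%), with 4 at an unadjusted p under 0.05, and limma voom called 0. The members' values ran from 0.13 ± 1.19 (DNAJB9) to 0.97 ± 1.05 (HSP90B1), each within its error. Most of them depend on control replicate 2 of Ribo-seq. Without it, HSPA5 was at -0.12, CALR at -0.12, CANX at -0.02, PDIA3 at -0.08, PDIA4 at -0.42, HERPUD1 at -0.07 and DNAJB9 at -0.74, so that 7 of the 10 values changed sign. HSP90B1 was at 0.39 and PDIA6 at 0.14 without it. XBP1 depends on control replicate 1 instead, with 0.02 without that library and 1.32 without control replicate 2. Without the library labelled KD replicate 2 all 10 values stayed above 0, from 0.38 (DNAJB9) to 1.22 (HSP90B1), with 1 Ribo-seq KD library left.

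**Figure D3:**
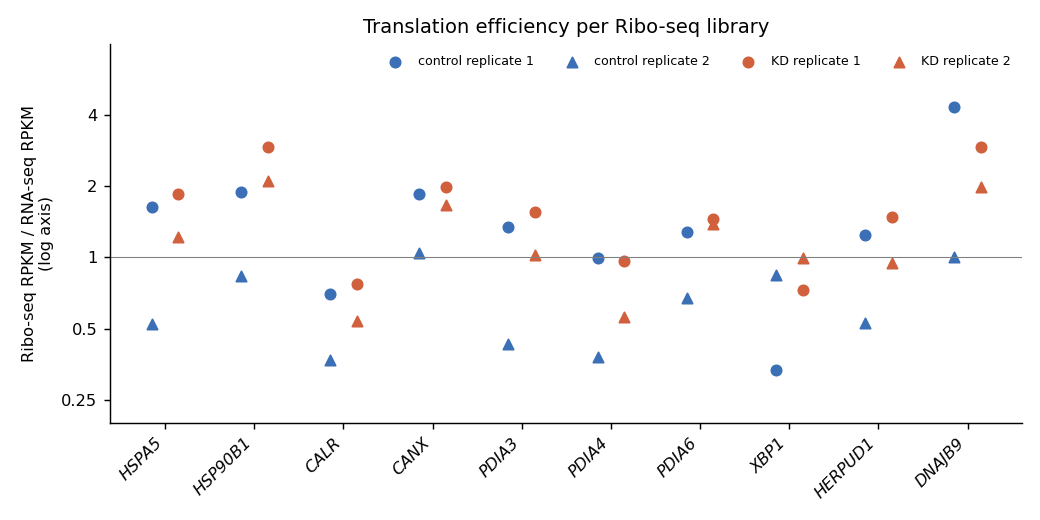
Ribo-seq to RNA-seq RPKM ratio (log axis) of the 10 genes in each Ribo-seq library, with control in blue, KD in orange, replicate 1 as circles and replicate 2 as triangles. The control triangles are the lowest point for 9 genes, and for XBP1 the control circle is.

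Genes of related lists were compared in PARS-seq in the same fit. Their counts are to be read against the 7.43% of all genes called lower and the 8.06% called higher. Of 21 other ER folding factors tested, 4 were lower and 1 higher, with a median log2 difference of -0.34. PPIB, an ER prolyl isomerase, fell from 182 and 166 RPKM to 34.5 and 38.3 RPKM (-2.23 ± 0.17, limma adjusted p = 0.000383), and PDIA5 and CRELD2 fell by 1.28 and 0.91 on the log2 scale. P4HB, the founding disulfide isomerase, was at 522 and 431 RPKM in control and at 339 and 367 RPKM in KD and was not called. CRELD2 is also among the 25 genes with an ERSE match.

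Of 16 ER-associated degradation genes tested, 3 were lower and 1 higher, with a median of -0.27. EDEM2, which acts on glycoproteins, fell by 1.25 and ERLEC1, an ER lectin, by 0.88, and HERPUD2, a relative of HERPUD1, rose by 0.80 on the log2 scale. VCP, the ATPase that extracts proteins from the membrane, was at 152 and 138 RPKM in control and at 102 and 95.5 RPKM in KD and was not called, nor was AUP1.

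Of 22 genes of ER translocation and N-glycosylation tested, 5 were lower and 1 higher, with a median of -0.28. SSR2, a subunit of the translocon-associated complex, fell by 0.92 and OSTC, of the oligosaccharyltransferase complex, by 1.03, whereas SEC63 rose by 1.01. DAD1 was not called.

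Among the sensors and stress factors the calls had the other direction. Of 13 tested, 5 were higher and 0 lower, with a median of 0.34, beside 8.06% and 7.43% of all genes. ASNS, asparagine synthetase, rose from 28.2 and 30.5 RPKM to 57.7 and 91.6 RPKM (1.28 ± 0.23, limma adjusted p = 0.0108). CHAC1 and TRIB3 rose by 1.18 and 1.17 on the log2 scale, and ATF4 itself was at 93.0 and 94.5 RPKM in control and at 104 and 133 RPKM in KD and was not called. ATF6B, a relative of ATF6, was at 65.8 RPKM in the RNA-seq control but was listed at 0 in all 4 PARS-seq columns and was not tested. Of 12 cytosolic and mitochondrial chaperones tested, 1, HSP90AA1, was higher (0.70 ± 0.19, limma adjusted p = 0.0444), and the median was -0.05. HSPB1, a small heat shock protein, was at 63.1 and 76.8 RPKM in control and at 48.5 and 73.6 RPKM in KD, and HSP90AB1, a cytosolic Hsp90, at 645 and 740 RPKM in control and at 702 and 959 RPKM in KD. Neither was called. Of 18 secreted liver proteins, only APOE was tested, since the others did not reach a mean of 1 RPKM, and it was not called. AMBP, at 1.24 and 1.05 RPKM in control and at 0.155 and 0.222 RPKM in KD, was among those not tested.

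Nuclease read starts could be followed for PDIA3 and PDIA4, the members whose UCSC transcript is named in the sources used here. Read starts of PDIA4 (2970 bases) in S1 libraries numbered 33095 and 21601 in control and 15583 and 9251 in KD. In V1 libraries they numbered 19624 and 13764 in control and 15811 and 9128 in KD. Relative to the library total, each KD library was below both controls with either nuclease. Limma on log2 read starts relative to the library total gave -1.12 ± 0.26 for S1 (adjusted p = 0.000233) and -0.95 ± 0.33 for V1 (adjusted p = 0.0445). These values stand beside a shift of the transcripts tested, with a median of -0.36 for S1 and -0.14 for V1. They also stand beside 18.6% of 4721 and 7.9% of 16885 transcripts called lower. The S1 set is limited by S1 control replicate 1, which lists 4722 transcripts, while the other libraries list 21052 to 22402. A single transcript held 26.0% to 54.7% of all read starts of a library. In S1 878 transcripts were called lower and 70 higher, against 428 and 310 with libraries scaled by their median ratio, and 455 and 308 with totals that leave out that transcript. In V1 the calls were 1334 lower and 346 higher, against 1099 and 666, and 893 and 890. The S1 value of PDIA4 was then -0.75 and -0.76 and still passed (limma adjusted p = 0.0277 and 0.0196). With libraries scaled by their median ratio the V1 call was lost (-0.79, limma adjusted p = 0.0539), as it was with totals that leave out the most covered transcript (-0.68, limma adjusted p = 0.0647), with the replicate number as a block (limma adjusted p = 0.152), and without KD replicate 1, control replicate 1 or control replicate 2 (limma adjusted p = 0.0583, 0.715 and 0.0706). The S1 call was lost without KD replicate 2 or control replicate 1 (limma adjusted p = 0.0919 and 0.0637).

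PDIA3 (3060 bases) had 24612 and 26020 read starts in the S1 controls and 18776 and 15437 in KD, and 36597 and 38782 in the V1 controls and 33731 and 29801 in KD. Its differences of -0.54 ± 0.25 for S1 and -0.75 ± 0.35 for V1 did not pass (limma adjusted p = 0.116 and 0.176), and the V1 value moved both ways with the KD libraries. It was -1.06 without KD replicate 2 and -0.43 without KD replicate 1, each with 1 KD library left. The S1 value was -0.17 with libraries scaled by their median ratio and -0.18 with totals that leave out that transcript, and the V1 value -0.58 and -0.48. Single bases held a large share of the starts in some of these profiles. Base 1759 of PDIA4, counted from the 5′ end, held 15.8% to 18.3% of the S1 starts in every library, and base 940 of PDIA3 held 7.80% to 12.3% of the V1 starts. In the V1 libraries of PDIA4 the highest base held 1.93% to 2.11%, and 43.6% to 53.8% of bases had a start. The last 200 bases of PDIA3 held at most 0.149% of starts in any library, while they make up 6.54% of its length.

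**Figure D4:**
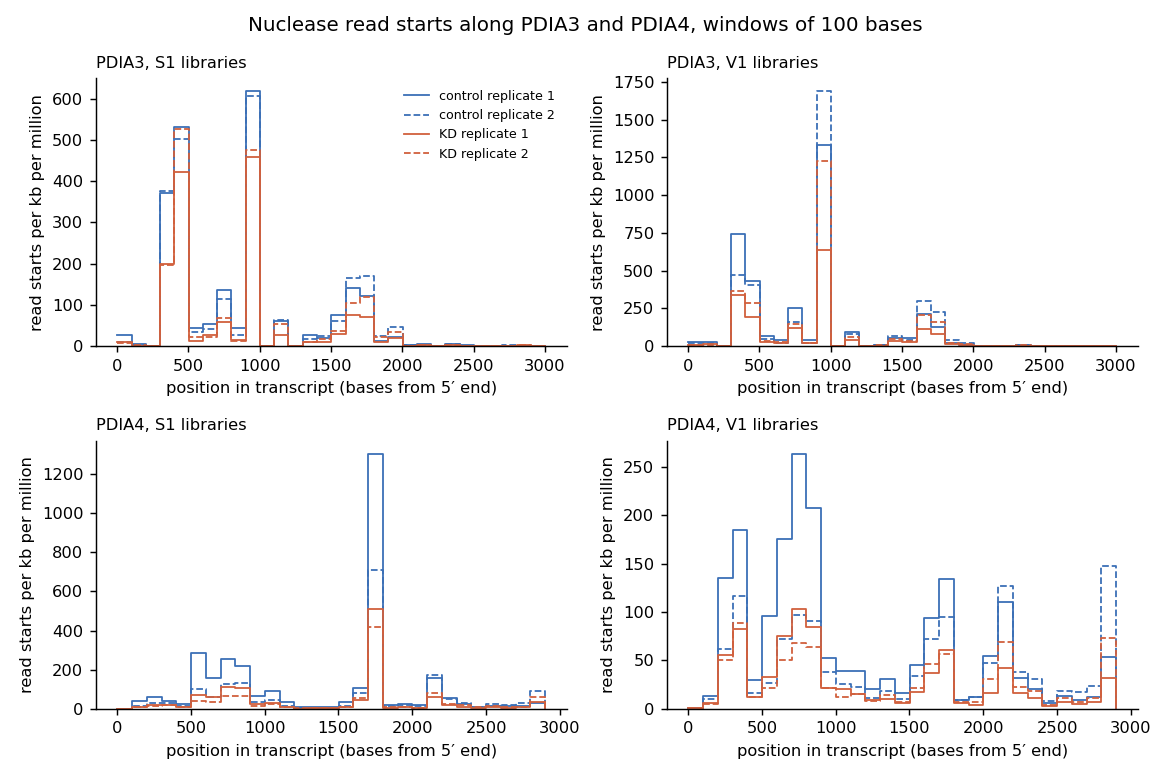
Read starts per kilobase, scaled to the read starts of each library, in windows of 100 bases along PDIA3 and PDIA4, for S1 and V1 libraries, with control in blue, KD in orange, replicate 1 as solid and replicate 2 as dashed lines. Peaks lie at similar positions in the libraries of a nuclease, but their relative heights differ. In the V1 libraries of PDIA4 the tallest window is not the same in each library. In PDIA4 the KD lines lie below control in the S1 peak near base 1759.

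The share of bases called double-stranded (DS) among all bases called double- or single-stranded, by Fisher's exact test on V1 against S1 starts, was compared next. PDIA4 had a DS share of 0.608 and 0.603 in control and of 0.564 and 0.573 in KD, from 517 to 817 classified bases. The groups did not overlap, which 67.0% of 4476 transcripts also showed in this direction. Tested against the transcript totals instead, PDIA4 was at 0.719 and 0.699 in control and at 0.672 and 0.702 in KD, which overlap. PDIA3 was at 0.595 and 0.560 in control and at 0.582 and 0.587 in KD, with overlapping groups. At p under 0.01 per base it was at 0.589 and 0.588 in control and at 0.564 and 0.576 in KD. These do not overlap, which 58.6% of 4432 transcripts also showed in this direction. Against the transcript totals PDIA3 was at 0.472 and 0.425 in control and at 0.511 and 0.444 in KD. Its mean difference, 0.00673, was -0.0184 and 0.0290 under these settings, so that no direction is given for PDIA3.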

How the data were processed

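The series holds 14 samples, and groups and replicate numbers came from the labels. The 10 genes and the gene lists were chosen with earlier results of these data known. The authors aligned reads to hg19 with bowtie2, used coverageBed with the RefSeq annotation for gene coverage, and deposited RPKM, those of PARS-seq being their means of the S1 and V1 library of a replicate. The PARS-seq RPKM hold no read numbers, and the numbers of aligned reads that the study lists for these libraries were not used here. They also deposited the number of read starts per base of UCSC transcripts, without normalization. The number of unused value columns was 0.

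From these files, log2(RPKM + 1) of genes with a mean of at least 1 RPKM was fitted with limma 3.58.1 (R 4.3.3) with a mean trend, and Benjamini-Hochberg adjusted p under 0.05 over all genes was called. For TE, an interaction over 6 libraries was fitted, where the RNA-seq libraries are assumed to vary like Ribo-seq. Whole reads, within a tolerance of 0.02 reads, were recovered for 99.9% of 17793 genes from RNA-seq and Ribo-seq RPKM. Totals were 40729941 and 30209865 reads for RNA-seq control and KD. Read starts were summed on transcripts with at least 10 starts in 2 libraries and 15 in total, with 0.5 added, relative to the sum over the transcripts listed in every library of that nuclease. Totals on the 4722 transcripts listed in all 8 libraries were 88565995 to 197781370. The design had assumed counts, and edgeR and DESeq2 were not used. The text names all 10 genes, ADAR, from each list the 2 genes highest in RNA-seq, and up to 3 called genes by size. Gene positions are from GENCODE on GRCh37, promoters from RefSeq. Fits were tested on simulated data, with the spread of each feature or the moderated spread. With either spread the fits of Ribo-seq and TE called no altered gene, so that 0 calls there say little, and the V1 fit called none with the spread of each feature. The PARS-seq fit made false calls above its nominal rate with the moderated spread, and below it with the other. Python 3.11.15 with scipy 1.17.1 was used.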

Additional observations from a re-analysis of the deposited data

Results flagged for a closer look

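In 4 genes both same-numbered pairs were lower in KD in PARS-seq and higher in KD in Ribo-seq. The difference between the assays was not tested. Ribo-seq minus PARS-seq, as the mean log2 KD to control ratio of both pairs, was 1.10 for HSP90B1, 0.909 for PDIA3, 1.10 for PDIA4 and 0.504 for HERPUD1. In replicate 1 the Ribo-seq ratios of PDIA3, PDIA4 and HERPUD1 were 1.00, 1.02 and 1.01, with counting intervals that include 1, so that the rise in this pair is within counting error. Among 10339 genes, 7.38% met both conditions. The same difference was above 0 for the other members too, whose pairs did not all move in opposite ways, at 1.40 for HSPA5, 1.22 for DNAJB9, 1.21 for PDIA6, 0.989 for CALR, 0.374 for CANX and 0.362 for XBP1. These means include the Ribo-seq library labelled KD replicate 2, whose ADAR level goes against its label. They also include Ribo-seq control replicate 2, which was lowest in Ribo-seq for every member but XBP1. The share of all genes with a difference above 0 was not counted. In the pair of replicates 2 the median log2 ratio of all genes was 0.16 in Ribo-seq and 0.04 in PARS-seq. That of cytosolic and mitochondrial chaperones was 0.85 and 0.02. In the pair of replicates 1 alone, chosen after seeing the data, the difference was 0.681 for HSP90B1, 0.426 for PDIA3, 0.871 for PDIA4 and 0.249 for HERPUD1. In that pair it was 0.843 for HSPA5, 0.475 for DNAJB9, 0.743 for PDIA6, 0.898 for CALR, 0.0509 for CANX and 0.933 for XBP1. The groups of 2 libraries were too small for a check of single outlying samples.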

How the results depend on the processing

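Single RNA-seq libraries and 2 libraries a group limit every value. Genes called in PARS-seq numbered 546 with no filter on low values and 1118 at a mean of at least 5 RPKM, where fewer genes were tested. With no filter HSPA5, PDIA6 and DNAJB9 had limma adjusted p of 0.0633, 0.0518 and 0.0661, and without KD replicate 2 HSPA5 had 0.0667. PDIA4 passed at 5 RPKM (0.0479) and without the mean trend (0.0474). With no filter 823 genes were called for TE, the cause was not tested. CALR in Ribo-seq was at -0.0296 with libraries scaled by their median ratio. The DS share difference of PDIA4 was -0.0218 against transcript totals.

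With the replicate number as a block, calls were 5656 of 11153 genes in PARS-seq, of which 2527 were lower and 3129 higher in KD. Calls were 143 of 10882 in Ribo-seq, 1 of 11165 for TE, 1043 of 4721 for S1 and 1748 of 16885 for V1. HSP90B1, CALR, PDIA3 and PDIA4 then passed in PARS-seq, where about as many genes passed as did not. PDIA4 did not pass in V1 (limma adjusted p = 0.152). Same-numbered deviations correlated at 0.811 in Ribo-seq and 0.658 in PARS-seq, but the labels name no shared culture or day.

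Leaving out 1 library gave 1171 to 2564 calls in PARS-seq, 0 to 24 in Ribo-seq, 0 to 0 for TE, 239 to 1833 in S1 and 507 to 1611 in V1. Fitted log2 values then ran, in Ribo-seq, from -0.34 to 1.28 for HSPA5, -0.36 to 0.57 for CALR, -0.20 to 0.62 for CANX, -0.29 to 1.29 for PDIA3, -0.36 to 1.00 for PDIA4, -0.48 to 0.43 for PDIA6, -0.25 to 1.05 for XBP1, -0.31 to 0.90 for HERPUD1 and -0.74 to 1.00 for DNAJB9. For TE they ran from -0.12 to 1.5 for HSPA5, -0.12 to 0.81 for CALR, -0.0207 to 0.803 for CANX, -0.0847 to 1.5 for PDIA3, -0.42 to 0.94 for PDIA4, -0.0725 to 1.14 for HERPUD1 and -0.74 to 1.00 for DNAJB9. In PARS-seq XBP1 ran from -0.0583 to 0.162, PDIA3 from -0.527 to -0.249, CANX from -0.224 to -0.0994 and HERPUD1 from -0.276 to -0.116. CALR ran from -1.21 to -0.551 and PDIA4 from -0.995 to -0.524 there. HSP90B1 ran from 0.0891 to 1.25 in Ribo-seq and from 0.391 to 1.56 for TE. For TE, PDIA6 ran from 0.141 to 1.06 and XBP1 from 0.0224 to 1.32. PDIA3 ran from -1.06 to -0.43 in V1. The limma voom fits and the counts without the library labelled Ribo-seq KD replicate 2 were chosen after seeing the data.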
